A study of Mus musculus and Acomys cahirinus with 25 samples.

Results

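The genes described here are 40 skeletal muscle genes, out of 24500 gene symbols that were counted in the series. They were chosen by name, as genes of the muscle sarcomere, its calcium and energy supply and its lineage factors, and were read in all 25 RNA-seq libraries. The study examined how full-thickness wounds of the dorsal skin regenerate hair follicles, in the laboratory mouse, where new follicles form at the wound center, and in the African spiny mouse (Acomys cahirinus), a rodent that regenerates skin over the whole wound. Epidermis and dermis were separated and sequenced as polyA RNA. The laboratory mice were labelled WT or KO, were 4 weeks old per the methods and were sampled at post-wound day 14 (PWD14). The KO animals are K14-Cre-Twist1 mice. The methods name C57Bl/6J mice for the wild-type work and Twist1+/+ mice as the controls of the transgenic work, and the labels do not say which of them a WT library came from. K14-Cre acts in keratinocytes, so the Twist1 deletion is in the epidermis and the dermal cells of the KO mice carry no deletion by design. Wild-type dermis was taken from the wound center (5 libraries) and the wound margin (2 libraries), KO dermis from the wound center (2 libraries), and wild-type epidermis from center and margin (2 libraries each). The spiny mice were 2 months old and wild type, with 6 dermis libraries (PWD0, 2; PWD14, 1; PWD21, 2; PWD28, 1) and 6 epidermis libraries (PWD0, 1; PWD14, 2; PWD21, 2; PWD28, 1) from whole wounds. The days are those of the labels, and a supplementary table of the study gives slightly different ones. PWD0, the day of wounding, served as the reference for the spiny mouse wounds. Whether a library came from 1 animal or a pool was not stated in the sources used here, so p-values measure only the spread between these libraries.

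Skeletal muscle contracts by sliding thick filaments of myosin along thin filaments of actin inside repeated units, the sarcomeres, which are anchored at the Z-discs. Each fiber type uses its own paralogs of the same parts, so that fast fibers carry Myh1, Myh2 or Myh4 as myosin heavy chain and slow fibers carry Myh7, while the embryonic chain Myh3 and the neonatal chain Myh8 are made by developing and regenerating fibers. New fibers arise from satellite cells, which carry Pax7, through myoblasts that switch on Myf5, Myod1, Myog and Myf6 in turn. Rodent skin has a thin sheet of striated muscle under the dermis, the panniculus carnosus.

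Levels are given as CPM, the counts of a gene per 1000000 reads on genes in the same library. A laboratory mouse library held 19413261 to 86532134 reads on genes and a spiny mouse library 5669760 to 34751956. An amount of 3 counts, taken as the smallest detectable, equals 0.0347 to 0.155 CPM in the laboratory mouse and 0.0863 to 0.529 CPM in the spiny mouse, with the largest value in the dermis of PWD0. Such floors and all intervals cover counting error only. Reads of both animals were aligned to the laboratory mouse genome, and 38.0% to 60.5% of spiny mouse reads were set aside for low alignment quality against 23.3% to 34.4% of laboratory mouse reads. Levels are therefore not compared between the animals, and a gene at 0 in the spiny mouse may be one whose reads did not align. Dermis libraries were led by fibroblast markers and epidermis libraries by keratinocyte markers, but 1 of the KO dermis libraries, replicate 2, held 31223 CPM of 7 keratinocyte markers where the other 8 laboratory mouse dermis libraries held at most 3693. Dermal Twist1 stood at 57.7, 36.3 and 105 CPM in the 3 wild-type libraries set against KO and at 73.4 and 44.0 CPM in KO, which does not check an epidermal deletion.

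Summed over the 40 genes, the level was 29.7 to 54.5 CPM across the 9 laboratory mouse dermis libraries and 8.01 to 15.4 CPM across the 4 epidermis libraries. In the spiny mouse it was 413.6 and 960.2 CPM in the dermis of PWD0 and 249.9 to 324.9 CPM in the 4 dermis libraries of the wounds. Spiny mouse epidermis held 276 CPM at PWD0 and 64.7 to 205 CPM in the wounds.

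**Figure D1:**
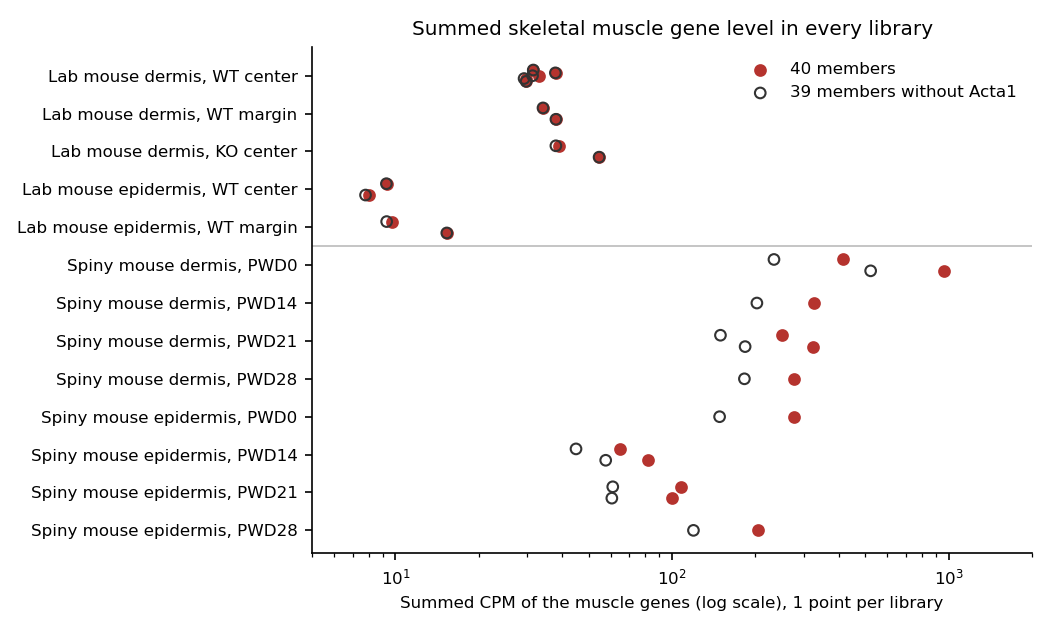
Summed CPM of the 40 muscle genes (filled) and of the 39 without Acta1 (open), 1 point per library, on a log axis, by tissue, region, genotype and post-wound day. The 9 laboratory mouse dermis libraries lie between 29.7 and 54.5 CPM, and the 2 spiny mouse dermis libraries of PWD0, at 413.6 and 960.2 CPM, lie above the 4 of the wounds.

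In laboratory mouse dermis at PWD14 the genes were low and patchy, with 24 of the 40 reaching 1 CPM in at least 1 library. Of the 40 genes, 11 were at 0 in all 9 libraries, 15 were above 0 in 1 to 4 of them and 3 were above 0 in all 9. Those 3 were Eno3, the muscle enolase of glycolysis, at 1.99 to 24.3 CPM, Pygm, the muscle glycogen phosphorylase, at 0.363 to 7.24 CPM, and Tnni1, the slow inhibitory troponin, at 0.141 to 9.49 CPM. Eno3 was the only one of the 40 that passed 10 CPM in any of these libraries. Tnnt1, the slow troponin T, was at 0 to 5.21 CPM and was read in 8 of the 9.

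The genes at 0 throughout laboratory mouse dermis included the fast heavy chains Myh2 and Myh4, the neonatal chain Myh8, the fast light chain Myl1, the fast calcium-binding troponin Tnnc2, the calcium buffer parvalbumin (Pvalb), and 4 of the 5 lineage factors, Myod1, Myog, Myf6 and Pax7. The fifth factor, Myf5, was read only in margin replicate 2, at 0.541 CPM (12 counts). Ckm, the creatine kinase of muscle and one of its most abundant transcripts, had 1 count in all 9 libraries together. Acta1, skeletal muscle actin, was at 0 and 0.103 CPM in center replicates 1 and 2, 0.129 and 0.0901 CPM in the margin, 1.82, 0.554 and 0.0759 CPM in center replicates 3 to 5, and 0.847 and 0 CPM in KO.

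**Figure D2:**
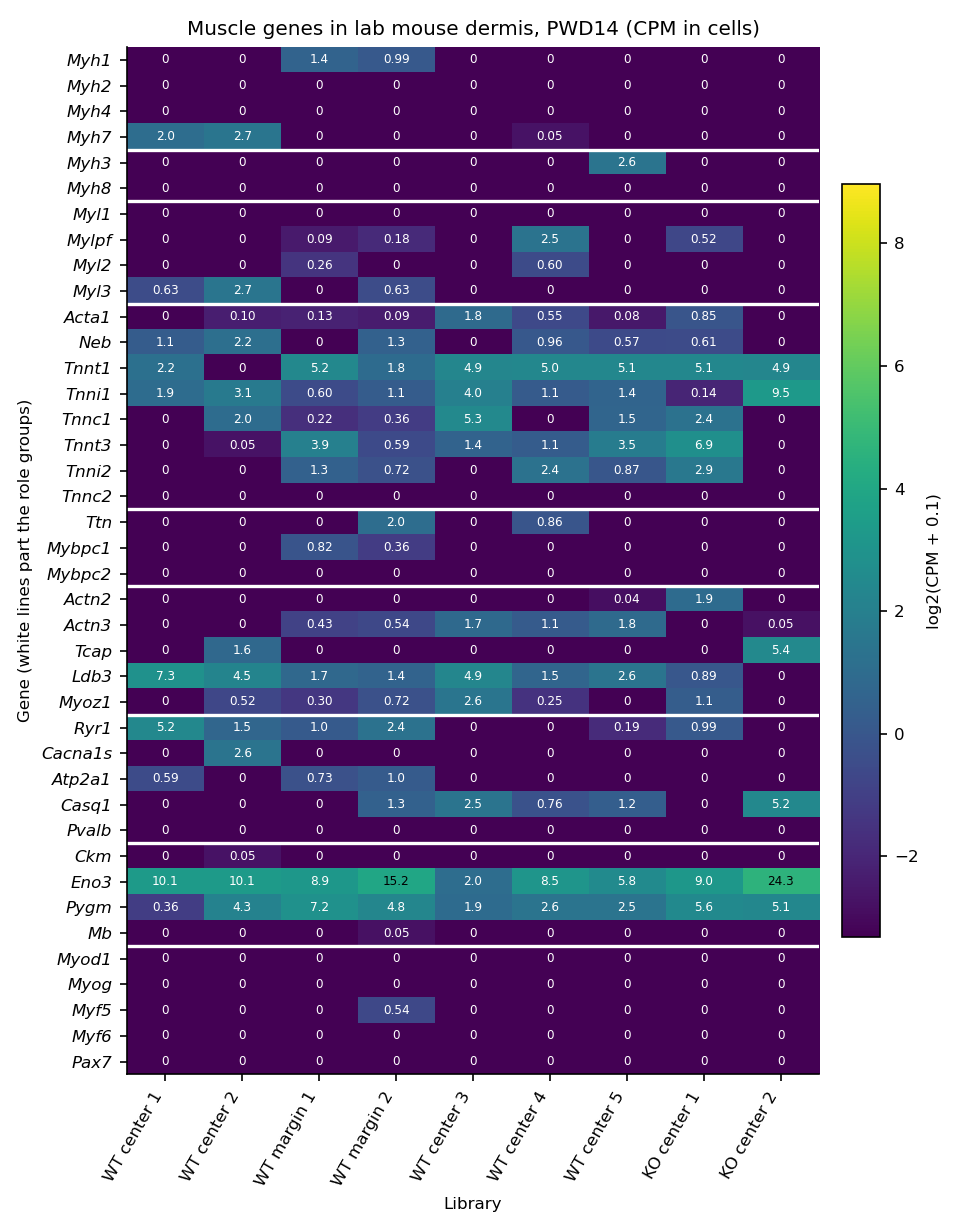
CPM of the 40 genes in the 9 laboratory mouse dermis libraries, printed in each cell and colored as log2(CPM + 0.1), with white lines between role groups. Most cells are at 0, and heavy chains appear as isolated cells, such as Myh3 at 2.58 CPM in center replicate 5 and Myh7 at 1.99 and 2.68 CPM in center replicates 1 and 2.

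What was present differed between libraries of the same group. Myh3 was at 2.58 CPM (68 counts) in wild-type center replicate 5 and at 0 in the other 8 dermis libraries. Myh7 was at 1.99 and 2.68 CPM in center replicates 1 and 2, at 0 in both margin libraries and at 0, 0.0504 and 0 CPM in center replicates 3 to 5. Among genes with at least 20 counts in 1 library, 3.30% to 18.5% were at 0 in the replicate beside it, over 6 pairs of laboratory mouse dermis libraries, and so were 24 of 75 such values of the muscle genes. In the 2 pairs of spiny mouse dermis the shares were 0.0562% to 0.617% for all genes and 0 of 51 for the muscle genes. What part this had in the laboratory mouse comparisons was not tested.

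The wound center of laboratory mouse dermis was compared with the margin in 2 libraries each, to ask whether muscle genes marked either region. No gene of the 40 passed the test. Only 14 of the 40 had enough counts to be tested, and 0 were called at an FDR under 0.05 by edgeR's quasi-likelihood test, where 0.85% of the 14698 genes tested were called (0.116% higher in the center and 0.735% lower). DESeq2 called 1 of the 40 and edgeR's likelihood ratio test 2. The shares of all genes that these tests called were not taken, so their counts are not read as a result about the muscle genes. The median log2 fold change of the 14 was -0.56, also with genes at 0 in a whole group set to their bound, beside -0.03 over all genes tested.

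An unadjusted p under 0.05 was reached by 5 of the 14, and by 15.8% of all genes tested. Myh7 was higher in center replicates 1 and 2, at 1.99 and 2.68 CPM against 0 and 0 in the margin. That is at least 17.3-fold over the floor of 3 counts per library (unadjusted p = 0.0113, FDR = 0.213). Ldb3, a scaffold of the Z-disc, was at 7.34 and 4.53 CPM in the center and 1.68 and 1.40 CPM in the margin (log2 fold change 2.05 ± 0.91 SE, FDR = 0.302). Myh1, a fast heavy chain, was at 0 and 0 CPM in the center and 1.42 and 0.991 CPM in the margin, at least 7.81-fold lower in the center (FDR = 0.243). Tnni2, the fast inhibitory troponin, was at 0 and 0 CPM in the center and 1.29 and 0.721 CPM in the margin, at least 6.51-fold lower in the center (FDR = 0.252). Tnnt3, the fast troponin T, was at 0 and 0.0515 CPM against 3.92 and 0.586 CPM (FDR = 0.28). In center replicates 3 to 5, which were not part of this comparison, Tnni2 was at 0, 2.42 and 0.873 CPM. Tnnt3 was at 1.40, 1.11 and 3.45 CPM there, Myh7 at 0, 0.0504 and 0 CPM, Myh1 at 0 in each and Ldb3 at 4.93, 1.51 and 2.58 CPM. In the libraries compared, the center and margin values of these 5 genes did not overlap. Such non-overlap was seen in 9 of the 14 and in 45.3% of all genes tested. Of these 5 genes, all but Ldb3 passed the count filter only through the group where they were high, so their values are a description. Adipocyte, keratinocyte and Schwann cell markers were at higher summed levels in both margin libraries than in center replicates 1 and 2, and their part in these values was not tested. The summed muscle level was 31.5 and 38.0 CPM in the center and 34.3 and 38.1 CPM in the margin. The exact two-sided permutation p for that sum was 0.667, where 0.333 is the smallest that 2 against 2 libraries can give.

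KO and wild-type wound center dermis were compared to ask whether loss of epidermal Twist1 changed the muscle genes below it. No gene of the 40 passed here either. Again 14 of the 40 were tested and 0 were called, by edgeR's quasi-likelihood and likelihood ratio tests and by DESeq2, 0 reached an unadjusted p under 0.05, and 0.0565% of all 14163 genes tested were called by the first (0.0494% higher in KO and 0.00706% lower), with 11.5% at an unadjusted p under 0.05. The 6 myosin heavy chains were at 0 in both KO libraries. The widest gap in CPM was in Eno3, at 8.99 and 24.3 CPM in KO and 1.99, 8.52 and 5.77 CPM in wild type (log2 fold change 1.67 ± 0.77 SE, FDR = 0.445). Its groups did not overlap, as in 4 of the 14 and in 29.4% of all genes tested, and its higher value lay in KO replicate 2, the library rich in keratinocyte markers. That library also held the highest Tnni1 (9.49 CPM), Tcap (5.44 CPM, the titin cap of the Z-disc) and Casq1 (5.21 CPM, the calcium store of fast fibers), each of which was at 0.141 CPM or below in KO replicate 1. The part of the keratinocyte signal in these values was not tested. The median log2 fold change of the 14 was -0.30, beside -0.07 over all genes tested. The summed level of the 40 went the other way, at 38.9 and 54.5 CPM in KO and a mean of 30.9 CPM in wild type. That is a log2 difference of 0.56, with an exact two-sided permutation p of 0.2, the smallest that 2 against 3 libraries can give.

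In spiny mouse dermis the muscle genes had their highest summed level at PWD0. From PWD0 to PWD21, 17 genes fell and 3 rose. Among those that fell were the light chains, troponins, calcium pump and calcium buffer of the fast fiber. The slow-fiber genes Mybpc1 and Tnni1 fell too. Those that rose were the embryonic heavy chain Myh3, the slow light chain Myl3 and the calcium release channel Ryr1. Outside the 40, the embryonic isoforms Actc1 and Myl4 fell from PWD0 to PWD21, but Myl4 stood above both PWD0 libraries at PWD14. Of the 40 genes, 33 were tested, and the 7 left out were Myl2, Mb and the 5 lineage factors. The 20 calls compare with 26.2% of all 14481 genes tested (12% higher and 14.2% lower). An unadjusted p under 0.05 was reached by 24 of the 33 and by 40.8% of all genes, and the values of PWD21 and PWD0 did not overlap in 28 of the 33 and in 67.7% of all genes. The median log2 fold change of the 33 was -1.79, beside 0.03 over all genes tested. The 33 include genes that passed the count filter only because PWD0 was high, so the count is a description. In bulk tissue, fewer muscle fibers and less RNA per fiber cannot be told apart.

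**Figure D3:**
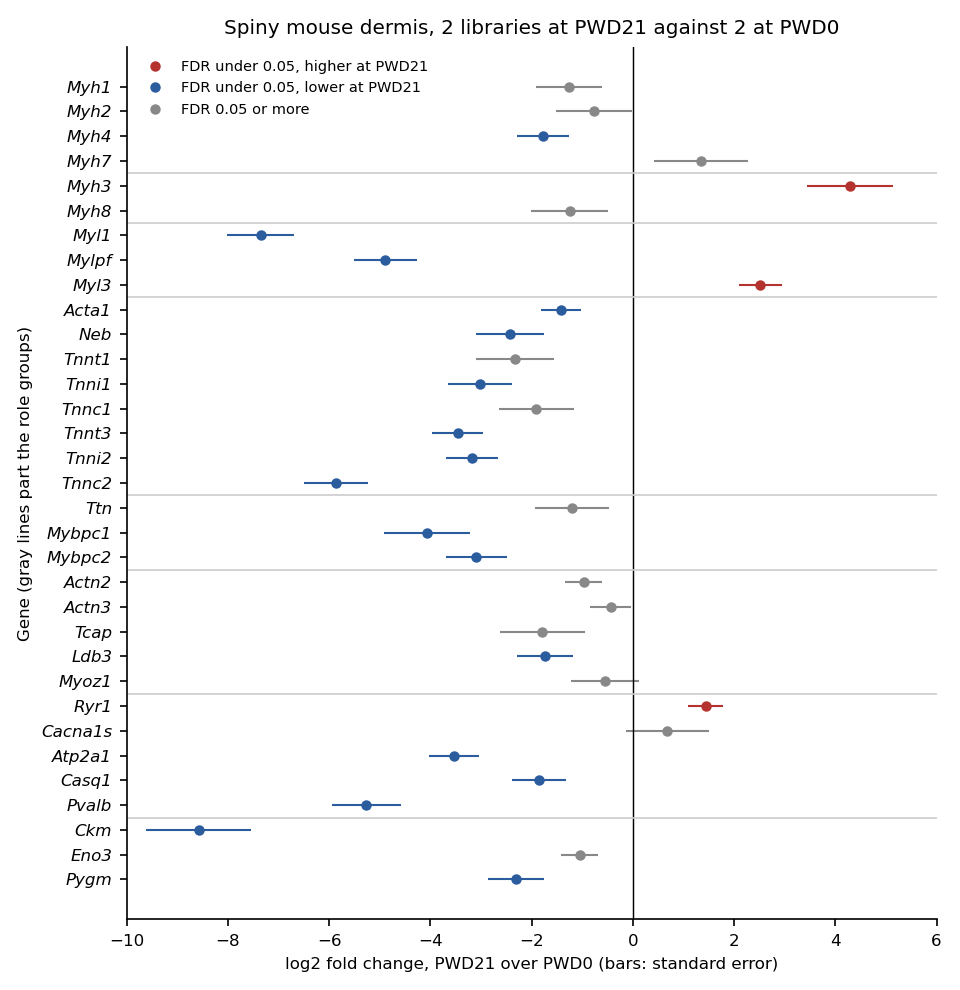
Log2 fold change of PWD21 over PWD0 in spiny mouse dermis for the 33 genes tested, with standard errors as bars, by role group. Of the 20 called genes, 17 lie left of 0, from Ckm at -8.58, which rests on 1 count at PWD21, to Acta1 at -1.42, and Myh3, Myl3 and Ryr1 lie right of it.

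The promoters of 3 genes that carry this pattern are shown, Myh3 for the genes that rose and Acta1 and Ckm for those that fell. Each is the 250 bases before a transcript start in the laboratory mouse reference (RefSeq, GRCm38.p6), written 5′ to 3′ on the gene's strand, and not spiny mouse sequence. Capitals mark the E-box CANNTG, the motif bound by Myod1, Myog and related factors. Myh3 lies on chr11:67078273-67102291 and its window on the plus strand at chr11:67078050-67078299. That window reaches past the listed start of the gene, so it precedes a later transcript start. Ckm lies on chr7:19411094-19421583 and its window on the plus strand at chr7:19410844-19411093. Acta1 lies on chr8:123891758-123894775 and its window on the minus strand at chr8:123894776-123895025.
Myh3: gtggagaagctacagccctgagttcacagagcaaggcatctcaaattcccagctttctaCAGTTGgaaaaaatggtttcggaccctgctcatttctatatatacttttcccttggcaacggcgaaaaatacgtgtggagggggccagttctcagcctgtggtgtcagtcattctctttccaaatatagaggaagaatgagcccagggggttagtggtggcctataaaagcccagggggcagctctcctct
Ckm: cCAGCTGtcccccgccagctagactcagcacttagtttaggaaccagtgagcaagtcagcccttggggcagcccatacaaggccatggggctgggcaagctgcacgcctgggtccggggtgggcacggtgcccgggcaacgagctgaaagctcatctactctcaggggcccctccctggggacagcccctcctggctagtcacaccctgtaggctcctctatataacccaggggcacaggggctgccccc
Acta1: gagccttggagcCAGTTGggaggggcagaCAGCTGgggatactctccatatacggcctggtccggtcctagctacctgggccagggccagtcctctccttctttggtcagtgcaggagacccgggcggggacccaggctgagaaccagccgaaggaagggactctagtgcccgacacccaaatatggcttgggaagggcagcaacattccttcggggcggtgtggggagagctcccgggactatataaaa

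The Myh3 and Ckm windows held 1 E-box each and the Acta1 window 2. The table of promoters matched 32 of the 40 genes with 39 windows, of which 31 (79.5%) held an E-box on either strand, the motif being its own reverse complement, against 66.2% of 32851 promoter windows of the same length over all genes. A motif of the factor MEF2 was found on either strand in 5 of the 39 (12.8%), those of Myh1, Myh4, Myh8, Pvalb and Ttn, and in 2.92% of all windows. A match of letters is not a bound site.

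Of the 6 myosin heavy chains, Myh3 rose, Myh4 fell and the other 4 did not pass the test. Myh3 was at 0 and 1.03 CPM at PWD0, 3.12 CPM at PWD14, 14.3 and 8.17 CPM at PWD21 and 16.7 CPM at PWD28. All 4 wound libraries lay above both of PWD0 (PWD21 over PWD0, log2 fold change 4.29 ± 0.85 SE, FDR = 0.00844). The fast chain Myh4 was at 5.47 and 5.0 CPM at PWD0, 7.83 CPM at PWD14, 1.96 and 1.35 CPM at PWD21 and 1.56 CPM at PWD28 (log2 fold change -1.78 ± 0.52 SE, FDR = 0.036), so that PWD14 did not share its fall, and it lost its call in 5 of 14 alternatives, with a log2 fold change of -0.65 (FDR = 0.682) when all 4 wound libraries were set against PWD0. Myh8 was at 3.53 and 2.50 CPM at PWD0, 3.12 CPM at PWD14, 2.28 and 0.547 CPM at PWD21 and 1.27 CPM at PWD28 (FDR = 0.247). Myh7 was at 0 and 2.50 CPM at PWD0, 0.765 CPM at PWD14, 3.06 and 3.68 CPM at PWD21 and 2.63 CPM at PWD28 (FDR = 0.311). The fast chains Myh1 and Myh2 ranged from 0.585 to 4.36 CPM and from 0.705 to 4.11 CPM and did not pass the test.

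The 6 heavy chains have similar lengths (6016 to 7871 exon bases), so their counts can be set side by side as shares. The developmental chains Myh3 and Myh8 together made up 31.7% (20 of 63 counts, exact 95% interval 20.6% to 44.7%) and 20.2% (24 of 119, 13.4% to 28.5%) of heavy-chain counts at PWD0, and 29.6% (24.9% to 34.6%) at PWD14. They made up 67.9% (63.8% to 71.8%) and 55.9% (51.6% to 60.1%) at PWD21 and 76.0% (70.1% to 81.3%) at PWD28. Within this share the chain itself changed, since Myh8 gave all 20 developmental counts of the first PWD0 library and 17 of 24 in the second, and Myh3 gave 70.7% of all heavy-chain counts at PWD28. The summed level of the 4 adult chains was 7.58 and 14.0 CPM at PWD0 and 5.66 to 14.8 CPM in the wounds, and that of the 2 developmental chains was 3.53 and 3.53 CPM at PWD0 and 6.24 to 17.9 CPM in the wounds. No test was made on the shares.

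**Figure D4:**
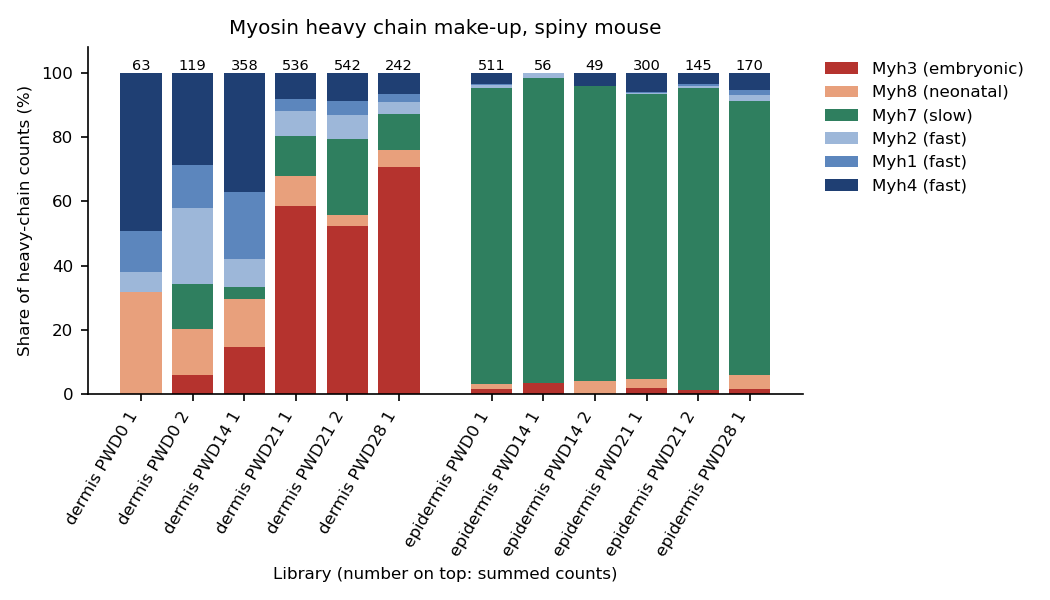
Share of each myosin heavy chain in the summed heavy-chain counts of every spiny mouse library, with the summed counts on top of the bar. Developmental chains (red tones) hold 55.9% to 76.0% in dermis of PWD21 and PWD28 and 20.2% to 31.7% at PWD0 and PWD14, while Myh7 (green) holds at least 85.3% in each epidermis library.

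Reads of heavy chains can be shared, which bears on which chain they were counted for. In the laboratory mouse transcripts, 16.6% of the 75-base windows of Myh1 (the read length per the labels) and 16.3% of those of Myh2 also occur in another gene, mostly in each other, 12.9% of those of Myh8 and 9.68% of those of Myh4. Myh3 is more distinct, with 1.86%. Myh3, Myh2, Myh1, Myh4 and Myh8 lie next to each other on chromosome 11, between 67078273 and 67308634, and Myh7 on chromosome 14, in GRCm38 coordinates. How spiny mouse reads divide between them was not tested.

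Of the 4 light chains, both fast ones fell and Myl3 rose. Myl1, the fast essential chain, was at 15.7 and 28.7 CPM at PWD0, 0.118 CPM at PWD14, 0.0456 and 0.201 CPM at PWD21 and 0 at PWD28 (log2 fold change -7.36 ± 0.65 SE, FDR = 0.000331). Mylpf, the fast regulatory chain, was at 7.94 and 7.79 CPM at PWD0, 0.883 CPM at PWD14, 0.410 and 0.173 CPM at PWD21 and 0.975 CPM at PWD28 (log2 fold change -4.89 ± 0.62 SE, FDR = 0.00136). Both were lower in all 4 wound libraries than in either PWD0 library. Myl3, the essential chain of slow and heart muscle, was at 4.41 and 2.94 CPM at PWD0, 34.6 CPM at PWD14, 24.2 and 21.8 CPM at PWD21 and 17.9 CPM at PWD28 (log2 fold change 2.52 ± 0.42 SE, FDR = 0.00412). Myl3 and Ryr1 are given in full after their values were seen, because only 3 genes rose. Myl2, the slow regulatory chain, was at 1.41 and 0.441 CPM at PWD0 and at most 0.0288 CPM after it, and had too few counts to be tested.

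All 8 thin filament genes had a lower fitted level at PWD21, and 6 of them fell. Acta1 was at 180.1 and 438 CPM at PWD0, 122 CPM at PWD14, 100.3 and 139 CPM at PWD21 and 93.0 CPM at PWD28 (log2 fold change -1.42 ± 0.39 SE, FDR = 0.0294). Per kilobase of exon it was the highest of the 40 genes in every spiny mouse dermis library, at 64.3 to 303 CPM per kilobase. Tnnc2, the fast calcium sensor, was at 9.70 and 9.55 CPM at PWD0, 0.235 CPM at PWD14, 0.0912 and 0.230 CPM at PWD21 and 0.488 CPM at PWD28 (log2 fold change -5.87 ± 0.63 SE, FDR = 0.000655). Tnnt3, Tnni2, Tnni1 and Neb, the ruler of the thin filament, fell by 2.42 to 3.46 on the log2 scale. Tnni1 returned to 6.63 CPM in the PWD28 library, above its 2.82 and 3.97 CPM at PWD0. The slow troponins Tnnt1 and Tnnc1 did not pass (FDR = 0.0564 and 0.0917). In the laboratory mouse transcripts, 0.437% of the 75-base windows of Acta1 occur in another gene. Of its 30-base windows 4.73% do, mostly in Actb. How spiny mouse reads divide between Acta1 and the other actins was not tested.

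Among the thick filament partners, Mybpc1, the slow myosin-binding protein C, was at 19.2 and 179 CPM at PWD0, 0.589 CPM at PWD14, 3.97 and 7.71 CPM at PWD21 and 2.34 CPM at PWD28 (log2 fold change -4.07 ± 0.84 SE, FDR = 0.0105). Its PWD0 libraries lay far apart, and both stood above all 4 wound libraries. The fast paralog Mybpc2 fell too (log2 fold change -3.10 ± 0.61 SE, FDR = 0.00828), and titin (Ttn), the elastic filament of the sarcomere, did not pass, with 1.76 and 13.4 CPM at PWD0 and 4.10 and 2.62 CPM at PWD21. Of the 5 Z-disc genes only Ldb3 was called, at 5.82 and 10.9 CPM against 1.55 and 3.63 CPM and close to the threshold (FDR = 0.049). The actinins, which cross-link actin at the Z-disc, did not pass. Actn2 was at 19.9 and 24.7 CPM at PWD0, 8.77 CPM at PWD14, 9.35 and 14.9 CPM at PWD21 and 21.0 CPM at PWD28 (log2 fold change -0.97 ± 0.37 SE, FDR = 0.0816). Actn3 was at 7.14 to 17.7 CPM over the 6 libraries (FDR = 0.448).

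Of the calcium-handling genes, 3 fell and 1 rose. Atp2a1, the calcium pump of fast fibers, was at 11.1 and 28.2 CPM at PWD0, 1.41 CPM at PWD14, 1.5 and 1.99 CPM at PWD21 and 2.24 CPM at PWD28 (log2 fold change -3.54 ± 0.50 SE, FDR = 0.00213). Pvalb was at 10.2 and 5.14 CPM at PWD0, 0.412 CPM at PWD14, 0.228 and 0.201 CPM at PWD21 and 0 at PWD28 (log2 fold change -5.27 ± 0.68 SE, FDR = 0.00147). Casq1 fell by 1.86 on the log2 scale. Ryr1, the channel that releases calcium on excitation, was at 18.9 and 22.0 CPM at PWD0, 77.8 CPM at PWD14, 42.7 and 75.4 CPM at PWD21 and 52.6 CPM at PWD28 (log2 fold change 1.44 ± 0.35 SE, FDR = 0.0201). Its partner Cacna1s, the voltage sensor that opens Ryr1, was at 0 to 4.88 CPM over the 6 libraries and did not pass (FDR = 0.564).

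Among the metabolic genes, Ckm and Pygm fell. Ckm was at 4.94 and 13.8 CPM at PWD0 (28 and 94 counts), 0 at PWD14, 0.0456 CPM (1 count) and 0 at PWD21 and 0 at PWD28. From pooled counts it was 554-fold higher at PWD0 than at PWD21, with an exact 95% counting interval of 97.6 to 22072 (FDR = 0.000582). Pygm went from 23.3 and 78.8 CPM to 6.48 and 14.5 CPM (log2 fold change -2.31 ± 0.56 SE, FDR = 0.0192). Eno3, whose product also works outside muscle fibers, was at 12.2 and 17.0 CPM at PWD0 and 7.52 and 7.45 CPM at PWD21 (FDR = 0.0614).

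**Figure D5:**
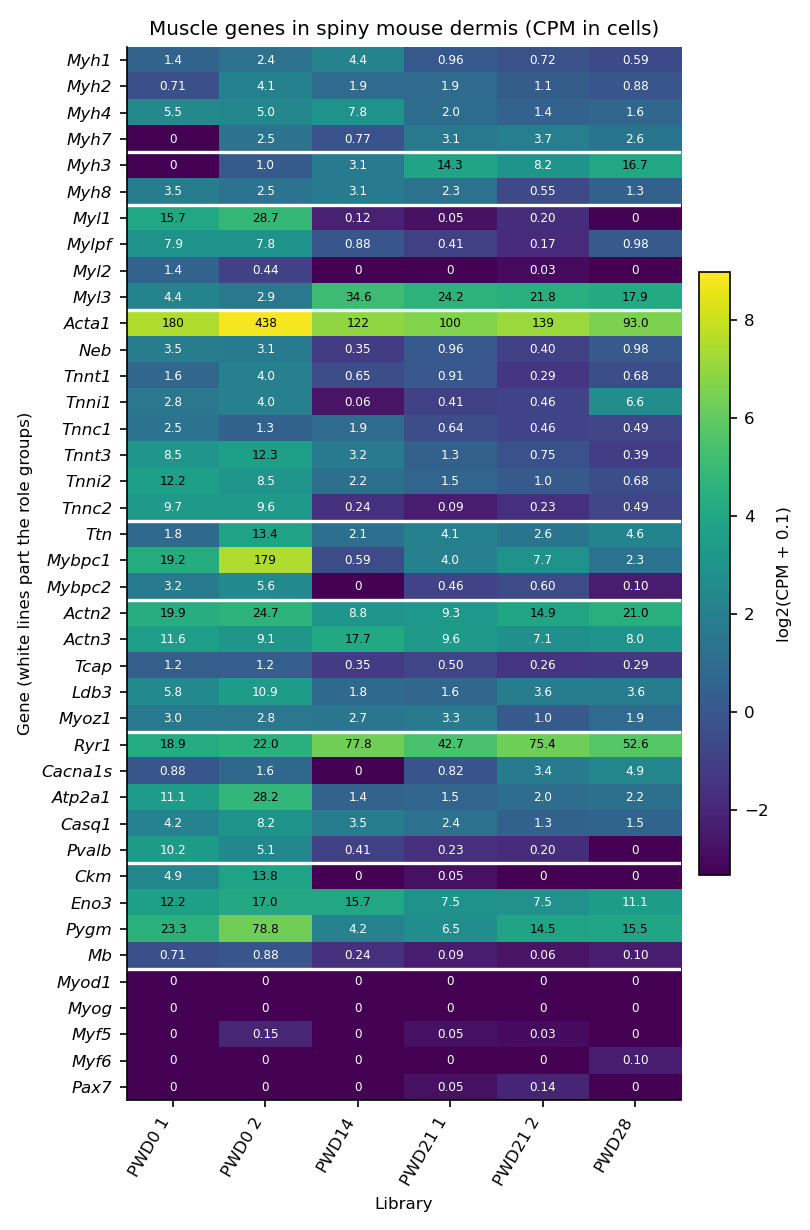
CPM of the 40 genes in the 6 spiny mouse dermis libraries, printed in each cell and colored as log2(CPM + 0.1), with white lines between role groups. Myl1, Tnnc2, Pvalb and Ckm are at 4.94 CPM or above in both PWD0 libraries and at 0.488 CPM or below in all 4 wound libraries, whereas Myh3, Myl3 and Ryr1 are higher in every wound library.

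The myogenic factors had at most 5 counts in any spiny mouse library and 12 in any laboratory mouse library. Myod1 had 0 counts in all 25 libraries, which allows up to 3 counts in each. Myog had 0 counts in spiny mouse dermis, and its only 4 counts stood in 1 epidermis library of PWD21 (0.118 CPM). In spiny mouse dermis Myf5 was at 0 and 0.147 CPM at PWD0, 0 at PWD14, 0.0456 and 0.0288 CPM at PWD21 and 0 at PWD28, which is at most 1 count per library. Pax7 in dermis was at 0 in both PWD0 libraries and at PWD14 and PWD28, and at 0.0456 and 0.144 CPM at PWD21 (1 and 5 counts). In epidermis Pax7 was at 0.472 CPM at PWD0 (5 counts), 0 at PWD14, 0.118 and 0.0571 CPM at PWD21 (4 counts and 1 count) and 0.103 CPM at PWD28 (1 count). Myf6 had 1 count, in dermis of PWD28. At this depth a change in these factors was not detectable. The rise of Myh3 in dermis was measured beside myogenic factors at or under the floor in every dermis wound library, except for Pax7 in PWD21 replicate 2.

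In a fit of all 4 wound libraries against PWD0, an alternative chosen after the data were seen, 11 of the 40 were lower and 1, Myl3, was higher, and 8 of the 20 calls were lost. Those were Myh3 (FDR = 0.054), Ryr1 (FDR = 0.061), Acta1 (FDR = 0.062), Ldb3 (FDR = 0.0745), Tnnt3 (FDR = 0.0761), Casq1 (FDR = 0.168), Tnni1 (FDR = 0.635) and Myh4 (FDR = 0.682). In that fit 1126 of 14664 genes were called. PWD14 and PWD28 had 1 library each and share the PWD0 libraries with the comparison of PWD21.

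Grouped by fiber type, a grouping made after the values were seen, the 14 fast-fiber genes summed to 105 and 137 CPM at PWD0 and 17.8 to 46.5 CPM in the wounds, so that all wound libraries lay below PWD0. The 7 slow-fiber genes summed to 31.9 and 194 CPM at PWD0 and 30.7 to 38.5 CPM in the wounds, which reach into the lower part of the PWD0 range. These slow-fiber sums were mostly Mybpc1 at PWD0 (19.2 and 179 CPM), which fell, and Myl3 in the wounds (17.9 to 34.6 CPM), which rose. They therefore do not describe the 7 genes as a set. The summed level of all 40 differed by -1.15 on the log2 scale between PWD21 and PWD0, with an exact two-sided permutation p of 0.333, the smallest that 2 against 2 libraries allow.

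Of the other muscle genes, held in 7 lists, 48 were tested between PWD21 and PWD0 and 15 were called, where 26.2% of all genes were called. Of the sarcomere and Z-disc genes outside the 40, 24 in all, 10 were tested and 2 were lower at PWD21, Myom1, the cross-link of the M-band, at log2 fold change -1.80 and Klhl41 at -2.63. Of 13 triad and sarcolemma calcium genes, 6 were tested and 2 were lower, Srl (-5.64) and Jph1 (-4.79), which ties the membranes of the triad together. Of 10 genes of the neuromuscular junction, 8 were tested and 2 were lower, Rapsn (-4.31), the clustering protein of acetylcholine receptors, and Chrng (-4.42), the embryonic subunit of that receptor. All 9 genes of the dystrophin complex and membrane repair were tested, with Sgca lower (-4.09) and Sgcb (1.32) and Cav3 (1.19) higher. Of 12 other metabolic genes, 6 were tested, with Cox7a1 lower (-3.54) and Phka1 higher (1.59). Of 11 satellite cell, myoblast and fusion genes, 7 were tested and 2 were higher, among them Mef2c (0.94), a transcription factor that also works outside muscle. Of 3 embryonic sarcomere isoforms, Actc1 (-2.02) and Myl4 (-1.06) were lower at PWD21, where Myh3 was higher. The PWD14 library did not share the fall of Myl4, at 50.9 CPM against 28.7 and 27.8 CPM at PWD0. Actc1 was at 44.3 CPM at PWD14, between its PWD0 values of 39.9 and 154 CPM. At PWD28 both Actc1 and Myl4 were below their PWD0 values. Tnnt2, which was not tested, was at 3.12 CPM at PWD14 and 0.353 and 1.76 CPM at PWD0. In the laboratory mouse dermis comparisons, 0 genes of these 7 lists were called, while 6 of 38 tested between center and margin and 5 of 36 tested between KO and wild type had an unadjusted p under 0.05, beside 15.8% and 11.5% of all genes.

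Markers of other cell types moved over the same libraries. The counts that fell or rose from PWD0 to PWD21 stand beside 14.2% of all genes tested that were lower and 12% that were higher. The 7 adipocyte markers summed to 1208 and 1191 CPM at PWD0 and 131 to 335 CPM in the wounds, and all 7 fell. The 7 keratinocyte markers summed to 9610 and 5727 CPM at PWD0 and 539.6 to 1898 CPM in the wounds, and 6 of them fell. The 8 smooth muscle markers, 3 of which fell, summed to 3673 and 11383 CPM at PWD0, 11578 CPM at PWD14 and 1745 to 3782 CPM after it. The 6 cardiac markers summed to 21.0 and 16.0 CPM at PWD0 and 13.6 to 111 CPM in the wounds. Only 4 of these 6 were tested, with 1 lower. Most of the cardiac sum at PWD14 and PWD21 was 1 gene, Myl7. It was at 16.2 and 3.82 CPM at PWD0, 109 CPM at PWD14, 29.4 and 21.7 CPM at PWD21 and 6.05 CPM at PWD28. Schwann cell markers, 5 in all, summed to 349 and 431 CPM at PWD0 and 26.4 to 249 CPM in the wounds, and 2 of them fell. On the other side, 4 of 8 fibroblast markers rose, with sums of 101921 and 68878 CPM at PWD0 and 95221 to 159859 CPM in the wounds, and so did 3 of 5 endothelial markers, with sums of 99.3 and 227 CPM at PWD0 and 260.5 to 636 CPM in the wounds. Of the 5 immune markers 1 rose, with sums of 171 and 232 CPM at PWD0 and 122 to 304 CPM in the wounds. Their part in the change of the muscle genes was not tested.

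The epidermis was read for the same genes as the layer above. In the laboratory mouse, 12 of the 40 were tested between center and margin and 0 were called by edgeR's quasi-likelihood and likelihood ratio tests and by DESeq2 (1.24% of all genes were called by the first, 0.882% higher in the center and 0.36% lower), with 1, Eno3, at an unadjusted p under 0.05 (23.5% of all genes). The values of center and margin did not overlap in 4 of the 12 and in 59% of all genes. Eno3 was at 1.33 and 1.57 CPM in the center and 6.12 and 2.92 CPM in the margin (FDR = 0.181). Mylpf and Tnni2 were read in all 4 libraries, at 1.02 to 4.51 and 1.65 to 4.55 CPM, while Myl1, Tnnc2 and Pvalb, their fast-fiber partners, were at 0. The median log2 fold change of the 12 was -0.03, beside -0.02 over all genes.

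In spiny mouse epidermis of PWD14 and PWD21 the genes with the largest CPM were Acta1, Pygm and Actn2, and the heavy chain read most was Myh7. Acta1 was at 128 CPM at PWD0, 19.8 and 24.1 CPM at PWD14, 46.5 and 39.6 CPM at PWD21 and 85.2 CPM at PWD28. Myh7 was at 44.3 CPM at PWD0, 4.11 and 2.87 CPM at PWD14, 7.86 and 7.76 CPM at PWD21 and 14.9 CPM at PWD28, and made up 85.3% to 94.6% of heavy-chain counts in the 5 libraries with at least 50 of them. Both were lowest at PWD14 and higher on each later day, with PWD0 and PWD28 resting on 1 library each. Myh6, the heart paralog that shares 15.3% of the 75-base windows of Myh7, stood at 43.6 CPM at PWD0, 8.29 and 7.08 CPM at PWD14, 20.8 and 19.1 CPM at PWD21 and 24.2 CPM at PWD28. Whether reads of 1 of these chains were counted for the other was not tested.

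Between PWD14 and PWD21 in spiny mouse epidermis, 13 of the 40 were tested and 3 were called, where 46.6% of all 12889 genes tested were called (23.4% higher at PWD14 and 23.2% lower). An unadjusted p under 0.05 was reached by 4 of the 13 and by 54.3% of all genes, and the groups did not overlap in 6 of the 13 and in 80.3% of all genes. Ryr1 was higher at PWD14, at 7.05 and 6.13 CPM against 2.87 and 3.03 CPM (log2 fold change 1.71 ± 0.32 SE, FDR = 0.00157). Tnni2 was higher too, at 2.09 and 1.72 CPM against 0.857 and 0.799 CPM (log2 fold change 1.71 ± 0.50 SE, FDR = 0.0161). Actn2 was lower, at 3.10 and 3.83 CPM against 9.87 and 10.2 CPM (log2 fold change -0.98 ± 0.31 SE, FDR = 0.0227). Acta1 (FDR = 0.104) and Myh7 (FDR = 0.141) did not pass. Pygm was at 14.4 and 27.9 CPM against 23.5 and 24.2 CPM (FDR = 0.256). The choice of scaling weighs on these directions. With library size alone in place of TMM factors, the median of all genes moved from -0.04 to -0.59. The share of higher genes among all calls moved from 50.2% to 18.9%. The muscle genes called became 1 higher and 4 lower, where 1335 of all genes were called higher and 5721 lower.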

How the data were processed

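Raw counts for each gene symbol were deposited by the authors, with 1 file per library. They aligned 75-base reads to mm10 with STAR (2.4.1d in the submitters' processing notes, 2.6.1d in the reporting summary) and counted them with htseq-count 0.6.0. Laboratory mouse libraries were strand-specific and spiny mouse libraries were not.

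From these counts, CPM over all gene rows was computed for levels, and edgeR 4.0.16 (R 4.3.3, limma 3.58.1) with TMM, filterByExpr and the quasi-likelihood test was fitted to all genes of each comparison, with Benjamini-Hochberg adjustment (FDR) over all genes tested and a threshold of 0.05. Sums used an exact permutation test on log2(CPM + 1). The test was tested on simulated data. DESeq2 1.42.0 and other scalings, filters and library sets were alternatives.

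Wild-type center dermis libraries 1 and 2 were set against the margin and 3 to 5 against KO, as the study did. The 40 genes, gene lists and tests were chosen with earlier results of these data known. Given in full are called genes whose mean reached 1 CPM, up to 8 by fold change, and always Myh3, Myh8, Myh4, Myh7, Acta1, Ckm and the 5 myogenic factors. The other muscle genes named are at most 3 called per list. Marker lists of fibroblasts, Schwann cells, endothelium and immune cells were also summed. A result of the satellite cell and myoblast list is not reported here.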

Additional observations from a re-analysis of the deposited data

Results flagged for a closer look

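In the 5 libraries of wild-type wound center dermis of the laboratory mouse, 26 measures with a spread were examined for 1 library far from the other 4, and 11 were found. In 9 of them the other 4 libraries were at 0, where any value above 0 stands apart by construction, so the share of about 5% that chance gives does not apply to them. Ckm and Actn2 rest on 1 count each. Replicate 5 stood apart for Myh3 (2.58 CPM) and Actn2 (0.0380 CPM), replicate 4 for Mylpf (2.47 CPM), Myl2 (0.605 CPM) and Ttn (0.857 CPM), replicate 3 for Myoz1 (2.62 CPM), replicate 2 for Tcap (1.65 CPM), Cacna1s (2.58 CPM), Myl3 (2.68 CPM) and Ckm (0.0515 CPM), and replicate 1 for Atp2a1 (0.589 CPM). The far library differed from gene to gene.

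Pygm had center and margin values in opposite order in the 2 tissue layers of the laboratory mouse, and passed the test in neither (dermis FDR = 0.563, epidermis FDR = 0.268). In dermis the center mean was lower than the margin mean (center minus margin -3.71 CPM), and in epidermis it was higher by 0.391 CPM, with 0.280 and 0.615 CPM in the center and 0.113 and 0 CPM in the margin. Such non-overlap was seen in 45.3% of all genes in dermis and 59% in epidermis. The difference between the layers was not tested.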

How the results depend on the processing

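No paired analysis was possible because the replicate numbers of the libraries were given in order and pair no animals. Of the 20 genes called in spiny mouse dermis, 8 held under every alternative run (Myl1, Mylpf, Myl3, Ckm, Tnnc2, Tnni2, Atp2a1 and Pvalb), and 0 reversed. Leaving out 1 library gave 2 to 4 genes higher and 8 to 18 lower, with 8 lower without PWD21 replicate 1 and 10 without PWD21 replicate 2. Myh3 lost its call without PWD21 replicate 1 (FDR = 0.0809), Ryr1 without PWD21 replicate 2 (FDR = 0.186) and Acta1 without PWD0 replicate 2 (FDR = 0.0684) or either PWD21 library (up to 0.211). With 1 library left in a group, its spread is taken to be that of the other group. All 4 wound libraries against PWD0, added after the data were seen, gave 1 higher and 11 lower.

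In laboratory mouse dermis, center against margin, DESeq2 gave 1 higher and the likelihood ratio test 1 higher and 1 lower. The shares of all genes called by DESeq2, by the likelihood ratio test and with 1 library left out were not taken in any comparison. The counts from these runs are therefore not read as a result about the muscle genes. Leaving out 1 library gave 0 calls there, 0 to 1 higher for KO (1 without KO replicate 1), and 0 to 1 higher and 0 to 2 lower in laboratory mouse epidermis (1 higher and 2 lower without margin replicate 1, 1 lower without margin replicate 2). In spiny mouse epidermis DESeq2 gave 1 higher, library size alone 1 higher and 4 lower, and leaving out 1 library 1 to 5 higher and 0 to 2 lower (5 and 2 without PWD14 replicate 1, 1 and 0 without either PWD21 library).

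The summed level differed by -0.06 (log2) between center and margin of dermis and reversed to 0.0249 with TMM-scaled CPM, and leaving out 1 library gave -0.193 to 0.0686, reversed without center replicate 1 or margin replicate 2 (0.0123). In laboratory mouse epidermis it reversed from -0.46 to 0.34 without the 3 largest genes, and in spiny mouse epidermis from -0.51 to 0.0387 with TMM-scaled CPM. The causes were not tested. The quasi-likelihood estimate of edgeR 3, added after the data were seen, changed no count by more than 1.5 times. The depth of the PWD0 dermis libraries limits what can be read of genes under 0.529 CPM.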
